A study of Mus musculus with 11 samples.

Results

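The mitotic and G2/M genes described here are 38 genes whose products carry a cell from the end of DNA replication through chromosome segregation and cytokinesis, followed in sorted adrenocortical cells of fetal mice with and without Star. The members were a named list, and each was read from the array probe whose RefSeq accession belongs to that gene, taking the probe with the highest mean where a gene had several. Of the 38 genes, 37 had such a probe, among 17016 named genes on the array; Mki67, the proliferation antigen Ki-67, had none. A gene was tested if its probe was well above background, by the scanner program's own flag, on at least 4 of the 11 arrays. That left 35 members among 21099 genes and unnamed probes tested. Ttk, a spindle checkpoint kinase above background on 2 arrays, and Anln, the cytokinesis scaffold anillin above background on 3, were not tested.

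The product of Star, the steroidogenic acute regulatory protein, delivers cholesterol to the inner mitochondrial membrane for steroid synthesis. The control group was 7 mice of genotype Star+/+ (wild-type) and the mutant group 4 mice of genotype Star-/- (knockout), all embryos of E17.5-18.5. Cells positive for eGFP were sorted from dissociated adrenal glands of both groups, and amplified RNA of each mouse was put on 1 single-colour Agilent array. The element that drives eGFP, and whether the mice were littermates, are not given in the sources used here. Sex was labelled male for all 4 knockout mice, and for 3 of the 7 wild-type mice.

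Mitotic entry is driven by cyclin B bound to the kinase Cdk1, and its partners Aurora and Polo-like kinases build and orient the spindle. The spindle checkpoint holds the anaphase-promoting complex inactive until every kinetochore is attached; the complex then marks cyclin B and securin for destruction, sister chromatids part, and the central spindle directs cytokinesis. Most of these genes are transcribed in a burst in G2 and mitosis, through MuvB complexes with B-Myb and FoxM1 that bind the CHR element beside CCAAT boxes bound by NF-Y; as a set they serve as markers of dividing cells. The fetal adrenal cortex grows by division of cells near its capsule.

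The arrays lay on 3 slides, and 1 wild-type array stood apart. On slide 1 were wild-type arrays 1 and 2 with knockout arrays 1 and 2, on slide 2 wild-type array 3 with knockout arrays 3 and 4, and on slide 3 wild-type arrays 4 to 7 alone. Genotypes were therefore compared within slides, so that every fitted difference rests on slides 1 and 2, while slide 3 informs the residual variance. On slide 2 the sole control, wild-type array 3, was the dimmest, with a 75th percentile of 115 intensity units against up to 706, and correlated least with the rest, at a median of 0.877. It was labelled female, and all other arrays of slides 1 and 2 were labelled male. Within slide 2, sex and genotype therefore cannot be told apart. Wild-type array 4 was labelled female, yet its Y-linked Ddx3y level of 2.70 lay with the males (2.26 to 3.32) and not with the other females (-6.74 to -5.27). Of 7 adrenocortical markers on the array, 6 or 7 were above background on every array, and Star itself stood at 3.21 to 7.86 in the wild-type and 1.58 to 3.27 in the knockout arrays. Whether the Star probe lies in the deleted sequence is not known here.

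A level is the log2 processed signal after subtraction of the 75th percentile of its array, so that 0 is the signal at that percentile and a step of 1 is a 2-fold change. A level belongs to its own probe and is not set against another gene's. Differences are knockout minus wild-type from a limma fit with genotype and slide as terms, given with the standard error (SE) over 4 knockout and 7 wild-type arrays, and p-values were adjusted by Benjamini-Hochberg over all 21099 features with a threshold of 0.05. A difference within slide 1 is also the fitted value without wild-type array 3, since slide 2 then has no control, and it is given for each member and list where it was over 1.5 times from the fit.

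Mitotic genes stood lower in the knockout arrays almost throughout. Of the 35 tested, 32 had a fitted difference below 0, where 56.9% of all features tested did, and their median was -0.91 against -0.16 over all features. At an unadjusted p under 0.05, 17 members were lower and 0 were higher, where 10.02% of all features were lower and 8.37% were higher. Over the adjusted threshold only Ect2 passed, the guanine exchange factor that turns on RhoA for the cleavage furrow, in a table where 0.829% of features passed and 0.227% passed as lower. In these bulk samples fewer dividing cells and less RNA per dividing cell cannot be told apart. The count of 17 was 6 without wild-type array 3, where 2.69% of all features were lower at that p, the median was then -0.73, and 0 members passed after adjustment (0.0474% of all features). The count was 10 with sex as a further term, a fit for which the share of all features at that p was not counted.

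The groups separated without overlap for many members. All 4 knockout arrays lay below all 7 wild-type arrays for 14 of the 35, where 3.20% of all features did so: Ccnb1, Ccnb2, Aurka, Aurkb, Birc5, Cdc20, Ect2, Prc1, Tpx2, Kif20a, Cenpe, Cenpf, Smc4 and Ncapd2. Against the 6 wild-type arrays other than array 3 the count was 19 (3.73% of all features), against the 3 labelled male it was 20 (6.92%), and against the 4 of slide 3 it was 21 (8.62%). Knockout arrays held the lowest value for 27 of the 35 members, and wild-type arrays the highest for 34, of which 11 were in wild-type array 3. The exception was Ndc80, highest in knockout array 4. Shares of all features with such extremes were not counted, and 7 of the 11 arrays are wild-type. The median deviation of the members from their means over all arrays was 0.10 to 0.76 in the wild-type and -0.87 to -0.61 in the knockout arrays. Wild-type arrays also differed more among themselves, with a median SD of 0.713 against 0.302 between knockout arrays, and their SD was the larger for 31 of the 35 members. Such spreads were not computed over all features, so they are not shown to be particular to the members. The wild-type arrays span 3 slides and both labelled sexes, while the knockout arrays are all labelled male and lie on slides 1 and 2. Marker content differed as well: the summed signal of chromaffin markers, relative to each array's 75th percentile, was 1477 to 1965 on wild-type arrays 5 to 7. It was 98.3 to 451 on wild-type arrays 1 to 4, where adrenocortical markers summed to 369 to 843 against 67.2 to 142 on arrays 5 to 7. The parts of genotype, slide, sex and cell content in the members' spread and in the counts without overlap cannot be told apart.

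**Figure D1:**
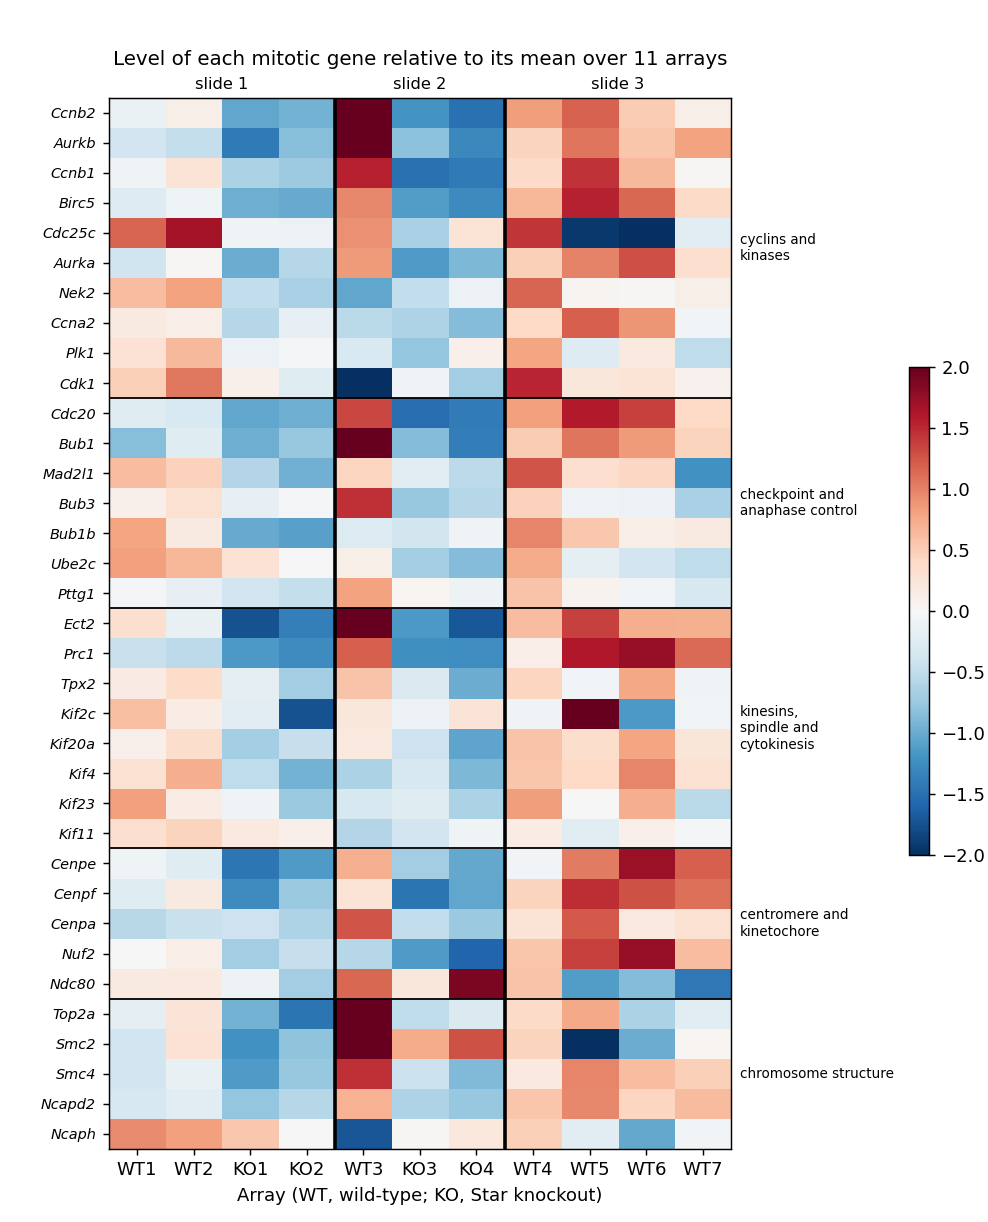
Level of each of the 35 tested members (rows, grouped by class) on each array (columns, grouped by slide), as the log2 deviation from that gene's mean over the 11 arrays; red is above and blue below the mean, with the colour limited at 2 either way. Most rows are blue in the 4 knockout columns, and wild-type array 3 holds the highest value of 11 members.

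The promoters of these genes share letters that the choice of members did not use. RefSeq promoter windows of the GRCm38.p6 assembly, from 250 bases before to 50 bases after the annotated start, were at hand for 32 of the 38 members, in 35 windows, since Bub3, Ect2 and Prc1 have 2 overlapping windows each. Both strands were searched for the CHR core TTTGAA, its variant TTCGAA and the CCAAT box CCAAT; no match of 1 motif overlapped a match of another. The CHR core stood in 26 of 35 windows (74.3%), in 23 of the 32 genes, against 17.9% of all 32851 windows and 12.7% of the 13601 windows of tested genes. A CCAAT box stood in 77.1% of member windows against 37.4% of all windows, and both stood in 65.7% against 6.95%. The CHR variant was in 3 member windows (8.57%), those of Bub1, Bub1b and Top2a, against 1.56% of all. The 34 CHR matches had a median position of -16.5 bases from the start, and 25 of them lay within 100 bases of it. Of 60 CCAAT matches, 39 lay within 100 bases, with a median position of -76 bases. Matches were counted per window, so letters shared by the overlapping windows of Bub3, Ect2 and Prc1 count in each.

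**Figure D2:**
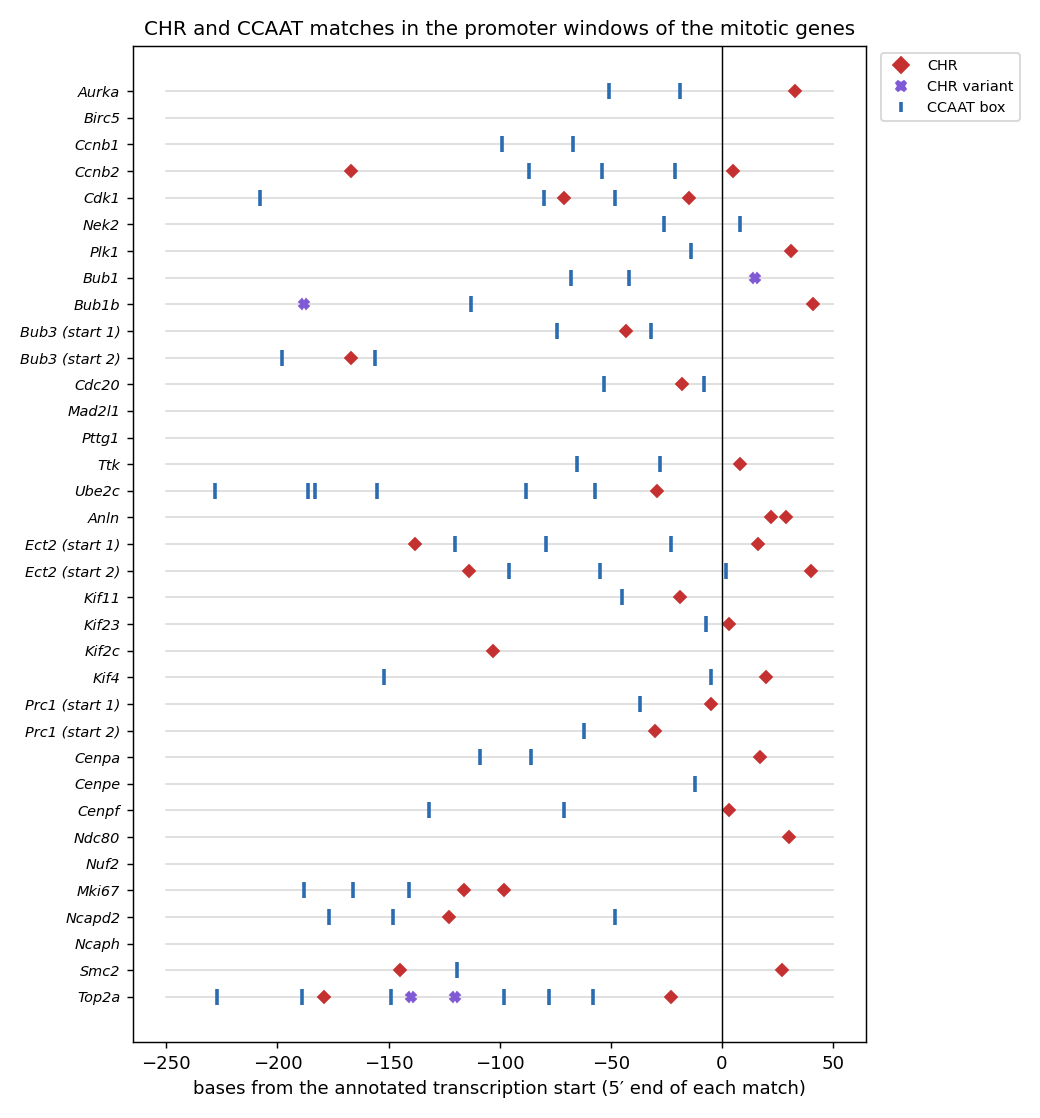
Positions of the CHR core, its variant and CCAAT boxes in each of 35 promoter windows of 32 members, as bases from the annotated start (x axis), on either strand. Red diamonds (CHR) gather near the start, with a median of -16.5 bases, and blue ticks (CCAAT) upstream of it, with a median of -76 bases; Birc5, Mad2l1, Pttg1, Nuf2 and Ncaph show no match in this window.

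To show this layout, 1 promoter of each class is printed: that of the tested member with the smallest p in the fit among those with a window. Each runs from 120 bases before to 30 bases after the start, 5′ to 3′ on the gene's strand, with matches to the 3 motifs or their reverse complements in capitals. All lie on the minus strand of GRCm38.p6: Ccnb2 at chr9:70421525-70421674, Cdc20 at chr4:118437314-118437463, Ect2 at chr3:27153825-27153974, Cenpf at chr1:189688057-189688206 and Top2a at chr11:99024160-99024309.
Ccnb2: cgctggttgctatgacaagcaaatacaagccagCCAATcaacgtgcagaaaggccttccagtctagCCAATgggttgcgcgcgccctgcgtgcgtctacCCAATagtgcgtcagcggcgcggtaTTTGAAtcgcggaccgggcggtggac
Cdc20: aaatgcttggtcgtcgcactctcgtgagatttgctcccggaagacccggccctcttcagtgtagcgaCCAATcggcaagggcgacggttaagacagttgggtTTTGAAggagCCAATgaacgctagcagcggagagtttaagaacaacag
Ect2: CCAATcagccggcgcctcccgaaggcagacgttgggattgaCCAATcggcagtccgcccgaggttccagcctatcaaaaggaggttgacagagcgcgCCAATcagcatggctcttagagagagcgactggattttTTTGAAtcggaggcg
Cenpf: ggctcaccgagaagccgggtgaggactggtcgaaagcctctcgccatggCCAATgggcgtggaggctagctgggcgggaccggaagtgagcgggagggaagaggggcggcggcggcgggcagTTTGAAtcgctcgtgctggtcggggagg
Top2a: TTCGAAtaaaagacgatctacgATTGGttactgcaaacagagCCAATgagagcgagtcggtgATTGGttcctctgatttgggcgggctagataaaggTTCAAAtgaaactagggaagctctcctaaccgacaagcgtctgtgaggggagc
Ccnb2 and Ect2 carry 3 CCAAT boxes each in these stretches and a CHR core just after the start, at +5 and +16 bases. Cdc20 has its CHR core at -18, between CCAAT boxes at -53 and -8, and Cenpf has a CCAAT box at -71 and a CHR core at +3. The window of Cenpe, of the same class as Cenpf, holds a CCAAT box and no CHR core. In Top2a the CHR core (TTCAAA on this strand) is at -23, with the variant at -120 and CCAAT boxes on both strands between them. A match is a description of the letters; binding was not measured.

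Among cyclins and mitotic kinases, 9 of 10 tested members were fitted lower, 5 of them at an unadjusted p under 0.05, with a class median of -1.22. Without wild-type array 3 the count at that p was 2 and the median -0.80. Ccnb2, a B-type cyclin with the largest difference of the class, ran from 4.77 through a median of 5.42 to 6.96 in the wild-type arrays, and stood at 3.87, 3.95, 3.71 and 3.40 in knockout arrays 1 to 4. The groups did not overlap, and the fitted difference was -1.95 ± 0.51 (limma, adjusted p = 0.107), -0.98 within slide 1 and -3.40 within slide 2. Ccnb1, the main B-type cyclin of mitotic entry, differed by -1.67 ± 0.51 (-0.77 within slide 1), and the groups did not overlap.

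The chromosomal passenger complex corrects faulty attachments and marks the site of cleavage; its kinase and survivin are members. Aurkb, the kinase Aurora B, ran from 0.20 through 1.23 to 3.03 in the wild-type and read -0.74, -0.18, -0.15 and -0.61 in the knockout arrays. No knockout value reached the wild-type range, and the difference was -1.79 ± 0.53 (limma, adjusted p = 0.136), at -0.71 within slide 1 and -3.41 within slide 2. Birc5, survivin, ran from 5.15 through 6.08 to 6.96 in the wild-type and read 4.44, 4.40, 4.30 and 4.15 in the knockout arrays. Its groups lay apart as well, with a difference of -1.35 ± 0.40 (limma, adjusted p = 0.140), at -0.82 within slide 1 and -2.15 within slide 2. Aurka, the centrosomal Aurora A, was also apart, at -1.10 ± 0.40 (-0.59 within slide 1). The complex's other subunits, Incenp and Cdca8 (borealin), which are not members, were at -0.49 ± 0.31 (-0.21 within slide 1) and -0.74 ± 0.37, neither at an unadjusted p under 0.05.

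Cdk1, the catalytic partner of cyclin B, was the exception, with a fitted difference of 0.45 ± 0.66. It ran from -3.38 through -0.34 to 0.91 in the wild-type and read -0.51, -0.85, -0.68 and -1.31 in the knockout arrays. The lowest wild-type value was that of array 3, where the probe was not above background; within slide 1 the difference was -0.84, and the value of 2.39 within slide 2 has that unmeasured level as its control. The remaining kinases and the phosphatase had small or uncertain differences: Plk1, Polo-like kinase 1, -0.34 ± 0.40 (-0.54 within slide 1), Nek2, which splits centrosomes, -0.47 ± 0.48 (-1.28 within slide 1), cyclin A2 (Ccna2) -0.40 ± 0.37, and Cdc25c, which activates Cdk1, -1.35 ± 0.82 from a probe above background on 6 arrays.

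All 7 tested members of the checkpoint and anaphase class were fitted lower, 3 at an unadjusted p under 0.05, with a median of -1.03. Without wild-type array 3 the count at that p was 1 and the median -0.60. Cdc20, the activator that the checkpoint restrains, ran from 4.41 through 5.54 to 6.30 in the wild-type and read 3.68, 3.75, 3.19 and 3.32 in the knockout arrays. It was the 1 member of the class whose knockout arrays all lay below all wild-type arrays, at -1.56 ± 0.48 (limma, adjusted p = 0.147), with -0.73 within slide 1 and -2.80 within slide 2. Bub1, a checkpoint kinase of the kinetochore, ran from -0.21 through 1.16 to 2.84 in the wild-type and read -0.34, -0.11, -0.22 and -0.74 in the knockout arrays. Its groups overlapped on slide 1, where the difference was -0.32, and the fitted value of -1.52 ± 0.57 (limma, adjusted p = 0.214) came mainly from -3.32 on slide 2.

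Bub3, the partner that anchors Bub1 at kinetochores, ran from 3.50 through 4.25 to 5.61 in the wild-type and read 3.98, 4.12, 3.39 and 3.57 in the knockout arrays, which overlap; it differed by -1.03 ± 0.44, and by -0.30 within slide 1. Pttg1, securin, the inhibitor of separase, had a difference of -0.54 ± 0.32 (-0.34 within slide 1). It ran from 5.13 through 5.44 to 6.26 in the wild-type and read 5.08, 4.98, 5.50 and 5.35 in the knockout arrays, with overlap across slides. Bub1b, the checkpoint protein BubR1, differed by -1.53 within slide 1 and 0.058 within slide 2, for a fit of -0.89 ± 0.42. Mad2l1, which binds Cdc20 in the checkpoint complex, was at -1.11 ± 0.53, and Ube2c, the ubiquitin-conjugating enzyme of the anaphase-promoting complex, at -0.72 ± 0.37.

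In the kinesin, spindle and cytokinesis class, 7 of 8 tested members were fitted below 0 and 4 were lower at an unadjusted p under 0.05, with a median of -0.86. Without wild-type array 3 the count at that p was 2 and the median -0.84. Ect2 had the largest difference of all members. It ran from 2.23 through 3.09 to 4.72 in the wild-type and read 0.63, 1.00, 1.22 and 0.67 in the knockout arrays, so that at least 1 log2 unit lay between the groups. Ect2 fell by 2.50 ± 0.47 on the log2 scale, 5.64-fold (limma, adjusted p = 0.0499). The value was -1.64 within slide 1, and the same without wild-type array 3 (limma, adjusted p = 0.379), and -3.77 within slide 2. Leaving out any 1 array other than wild-type array 4 raised its adjusted p in limma above the threshold, to between 0.0602 and 0.379, with the same direction each time. A second Ect2 probe, above background on 1 array, differed by 0.20, and the mean of both probes gave -1.15 (limma, adjusted p = 0.234).

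Prc1, which bundles the microtubules of the central spindle, ran from 4.15 through 5.81 to 6.42 in the wild-type and read 3.53, 3.41, 3.45 and 3.43 in the knockout arrays. The knockout arrays had an SD of 0.051 against 0.95 in the wild-type arrays, which span 1 slide more. The difference was -1.40 ± 0.49 (limma, adjusted p = 0.188), or -0.72 within slide 1. Kif20a, the central spindle kinesin MKLP2, ran from 2.83 through 3.08 to 3.51 in the wild-type and read 2.05, 2.26, 2.31 and 1.67 in the knockout arrays. Its groups lay apart, at -0.80 within slide 1 and -0.92 within slide 2, for a fit of -0.85 ± 0.31 (limma, adjusted p = 0.205). Tpx2, which activates Aurora A on the spindle, was at -0.91 ± 0.36 with no overlap.

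Kif11, the spindle motor Eg5, was at 0.00 ± 0.29 in the fit and -0.23 within slide 1. It ran from -3.29 through -2.60 to -2.26 in the wild-type and read -2.52, -2.60, -3.09 and -2.79 in the knockout arrays, with broad overlap, and its lowest wild-type value was again array 3, not above background there. The other kinesins had differences whose groups overlapped: Kif4, a chromosome arm motor, -0.74 ± 0.38 (-1.24 within slide 1), Kif2c, which depolymerises microtubules at centromeres, -0.87 ± 0.73 (-1.36), and Kif23, the MKLP1 subunit of centralspindlin, -0.58 ± 0.44 (-0.89).

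All 5 centromere and kinetochore members were fitted lower, 2 at an unadjusted p under 0.05, with a median of -0.76. Without wild-type array 3 the count at that p was 0 and the median -0.64. Cenpe, the kinesin that moves chromosomes to the metaphase plate, ran from 3.70 through 4.65 to 5.66 in the wild-type and read 2.49, 2.80, 3.25 and 2.91 in the knockout arrays. Cenpf, a large kinetochore protein that accumulates in G2, ran from 1.83 through 2.50 to 3.54 in the wild-type and read 0.80, 1.32, 0.60 and 1.02 in the knockout arrays. Both separated the groups fully: Cenpe was at -1.31 ± 0.43 (-1.13 within slide 1 and -1.57 within slide 2; limma, adjusted p = 0.166), Cenpf at -1.20 ± 0.37 (-0.98 and -1.52; limma, adjusted p = 0.146).

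Nuf2, a subunit of the Ndc80 complex that grips microtubules, ran from 0.84 through 1.98 to 3.16 in the wild-type and read 0.73, 0.96, 0.28 and -0.17 in the knockout arrays, at -0.70 ± 0.37. Here wild-type array 3 was the lowest wild-type array, and 1 knockout array lay above it. Cenpa, the histone that marks the centromere, differed by -0.018 within slide 1 and -1.87 within slide 2. Ndc80 itself, above background on 8 arrays, was at -0.39 ± 0.56 (-0.59 within slide 1) and turned positive, 0.51, without the slide term.

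Among chromosome structure genes, 4 of 5 tested members were fitted lower, 3 at an unadjusted p under 0.05, with a median of -1.26. Without wild-type array 3 the count at that p was 1 and the median -0.68. Top2a, topoisomerase II alpha, which untangles sister chromatids, ran from -3.45 through -2.56 to 0.02 in the wild-type and read -3.77, -4.28, -3.32 and -3.11 in the knockout arrays. The groups overlapped across slides though not within them, and the difference was -2.04 ± 0.50 (limma, adjusted p = 0.0964), at -1.24 within slide 1 and -3.24 within slide 2. Smc4, the core ATPase of both condensins, ran from 4.59 through 5.46 to 6.44 in the wild-type and read 3.84, 4.21, 4.55 and 4.10 in the knockout arrays. Every knockout value lay below every wild-type value, at -1.26 ± 0.39 (limma, adjusted p = 0.149), or -0.68 within slide 1.

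Ncapd2, a condensin I subunit, ran from 3.53 through 4.40 to 4.81 in the wild-type and read 3.08, 3.27, 3.23 and 3.09 in the knockout arrays. These groups were apart too, at -0.79 ± 0.32 (limma, adjusted p = 0.240; -0.40 within slide 1), but a second probe, above background on all 11 arrays, differed by 0.15. Ncaph, the kleisin that closes the condensin I ring, was positive in the fit at 0.36 ± 0.55. It ran from -3.94 through -2.27 to -1.29 in the wild-type and read -1.68, -2.23, -2.21 and -2.02 in the knockout arrays; the lowest value was wild-type array 3, not above background, so that the 1.82 within slide 2 has no measured control, and the difference within slide 1 was -0.61. Smc2, the other condensin ATPase, varied most between wild-type arrays (SD 2.31) and was at -1.86 ± 0.91 (-0.97 within slide 1).

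**Figure D3:**
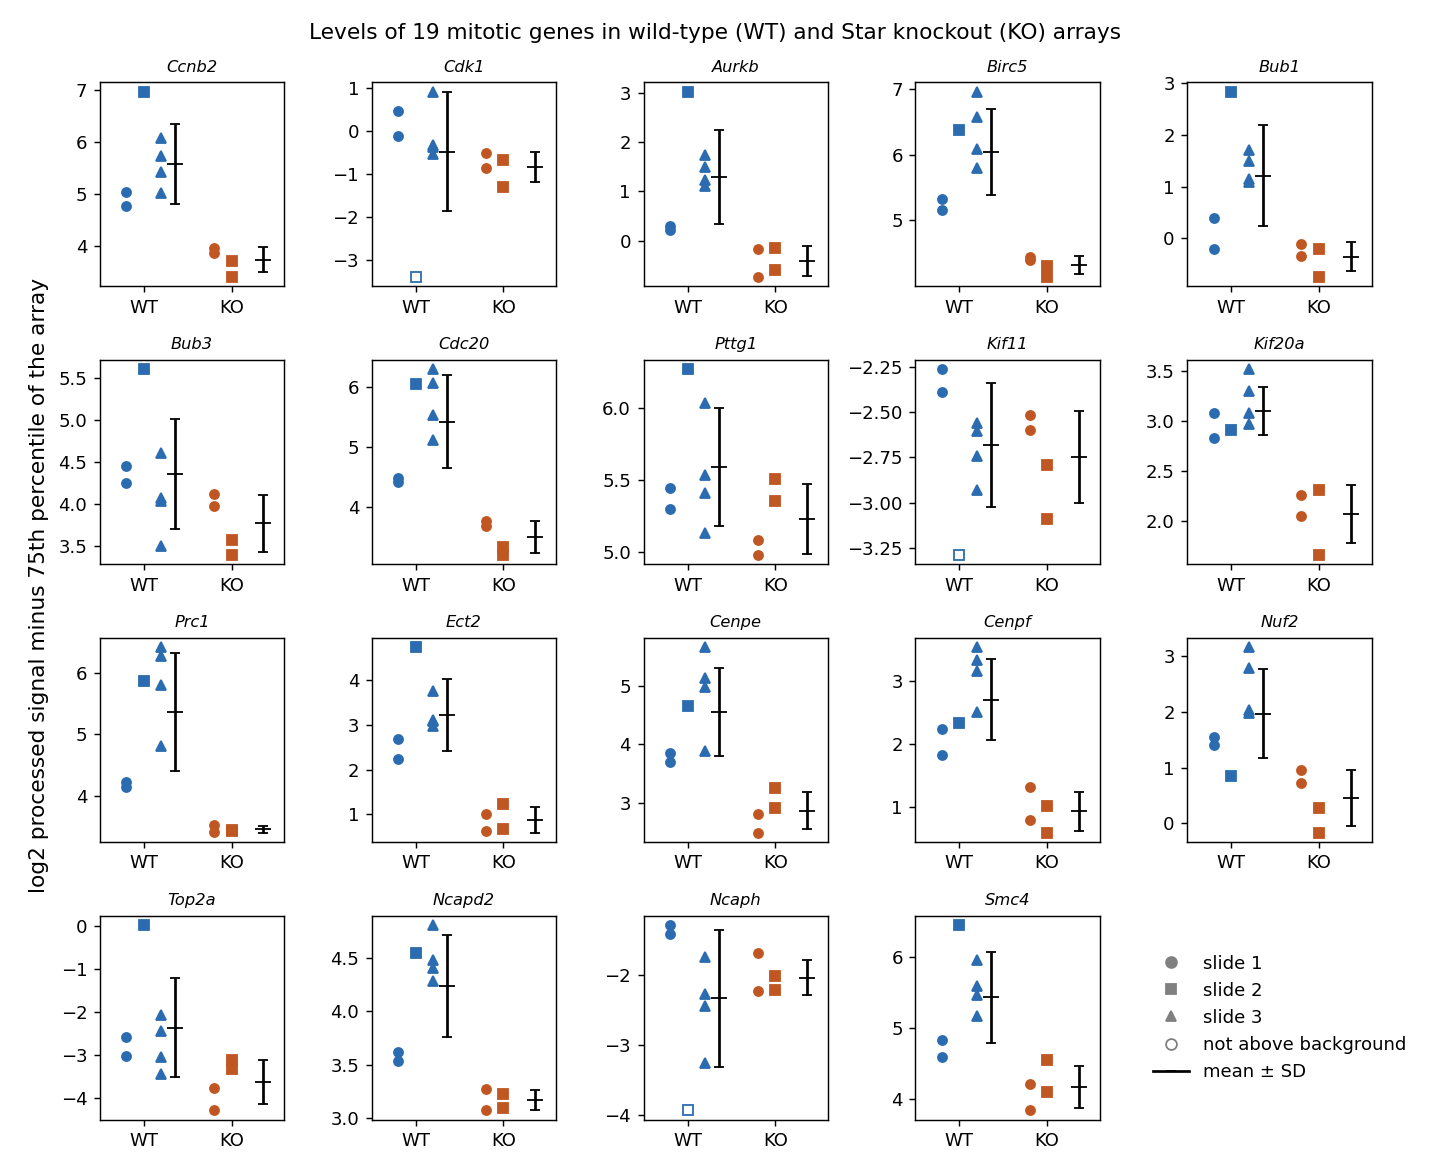
Levels of 19 members, 1 panel each, on the 7 wild-type (blue) and 4 knockout (orange) arrays, as log2 processed signal scaled to the 75th percentile (y axis, own range per panel); symbols give the slide, open symbols are not above background, and bars are the mean ± SD of each group. In Ccnb2, Cdc20, Ect2 and Cenpf all 4 knockout arrays lie below all 7 wild-type arrays, while in Cdk1, Kif11 and Ncaph the open square of wild-type array 3 is the lowest.

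The slides gave the same direction for most members but not the same size. Within slide 1, all 35 members were lower in the knockout, where 53.9% of all features were, with a median of -0.73 against -0.061 over all features. Both knockout arrays lay below both wild-type arrays of slide 1 for 33 of 35 (29.6% of all features), the exceptions being Bub1 and Cenpa. A fit of slide 1 alone had 16 members lower at an unadjusted p under 0.05 (9.28% of all features). Within slide 2, 29 of 35 were lower (57.9% of all features), with a median of -1.21 against -0.33, and both knockout arrays lay below its wild-type array for 25 (49.9%). The 6 members that were positive on slide 2 were Bub1b, Cdk1, Kif11, Kif4, Ncaph and Nek2; for Cdk1, Kif11 and Ncaph the control was not above background there.

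Direction agreed on both slides for 29 of 35 members (37.5% of all features were below 0 on both), and in 23 the knockout arrays were below every wild-type array of their own slide (19.8%). The difference was at least 2-fold and lower for 17 members in the fit (14.6% of all features) and for 9 within slide 1 (9.09%). In a test of the difference between slides, 14 of 35 members had an unadjusted p under 0.05, where 16.1% of all features did, 10 of them further below 0 on slide 2 and 4 (Cdk1, Nek2, Bub1b and Ncaph) above 0 there; in limma 0 passed after adjustment, where 0.0521% of all features did. Among members measured in every control of slides 1 and 2, the gap was widest for Bub1, 3.00 ± 0.63 lower on slide 2 than on slide 1 (limma, adjusted p of the interaction = 0.0930). Slide 2 rests on wild-type array 3 alone for its control, labelled female against male on the other arrays of slides 1 and 2. The parts of that array's sex and low signal in these gaps cannot be told apart and were not tested.

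**Figure D4:**
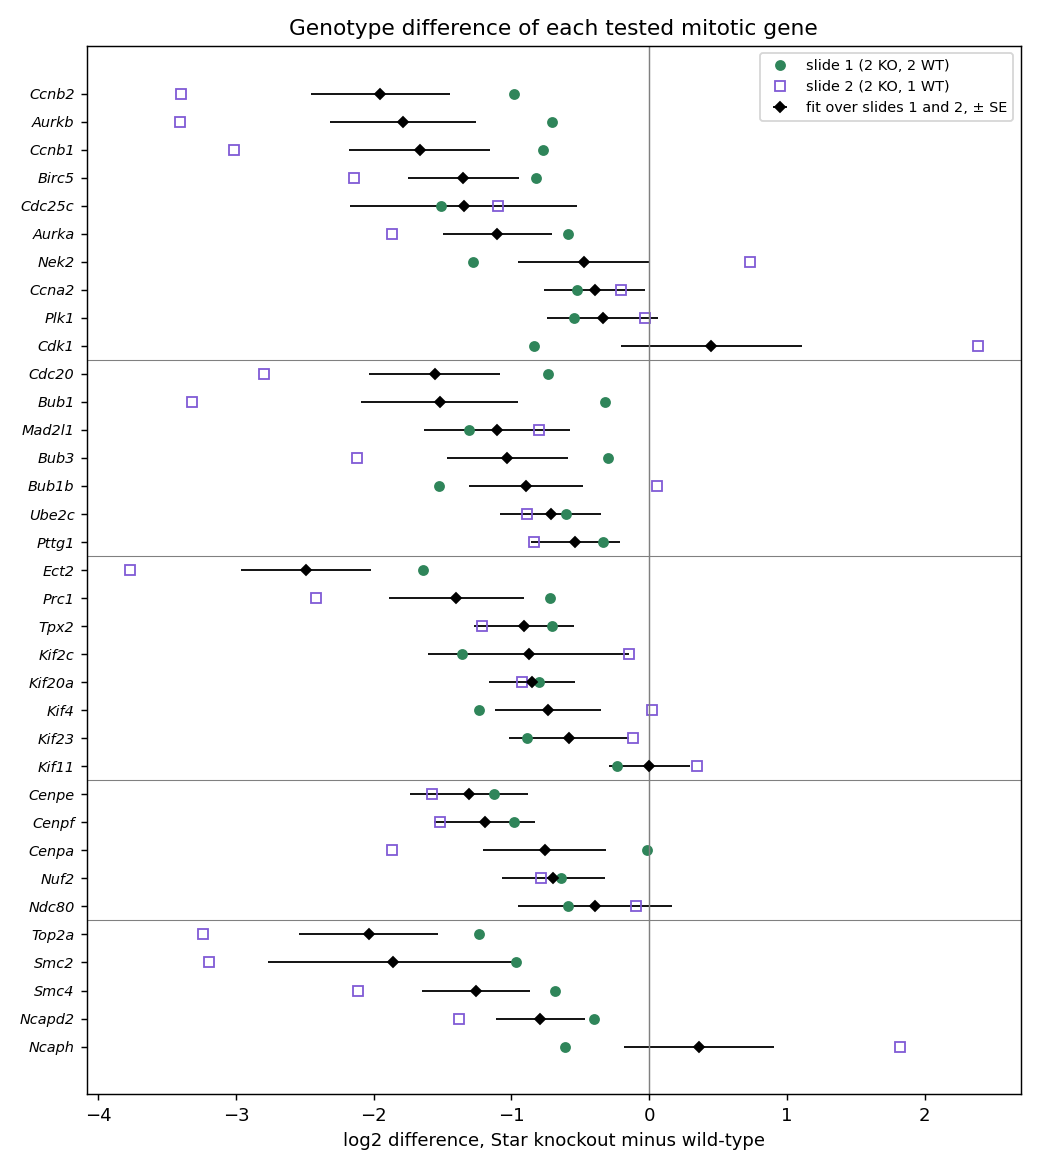
Genotype difference (x axis, log2, knockout minus wild-type) of each of the 35 tested members, within slide 1 (green circles), within slide 2 (open purple squares) and in the fit over both slides (black diamonds with SE). All 35 green circles lie below 0, by a median of 0.73, and 6 purple squares lie above it.

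Members with several probes mostly gave 1 direction. Of 13 such members, 7 had more than 1 probe above background on at least 4 arrays, and in 6 of these every such probe had the same sign; Ncapd2 was the exception. The 3 Ccnb1 probes differed by -1.67, -1.33 and -0.80, and the 2 Bub3 probes by -1.03 and -0.95. The second Cdk1 probe, above background on 0 arrays, gave -0.46.

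Other genes of the cell cycle were read from lists of known function. Of all features, 10.02% were lower and 8.37% higher at an unadjusted p under 0.05, and 2.69% were lower without wild-type array 3. Of 32 other mitotic genes tested, 14 were lower at an unadjusted p under 0.05, 0 were higher and 31 were lower within slide 1, with a median of -0.83; without wild-type array 3, 5 were lower at that p and the median was -0.75. Cdca3, a trigger of mitotic entry, was at -1.86 ± 0.42 (-1.18 within slide 1), Cenpi, a centromere protein, at -1.86 ± 0.41, and Spag5, the spindle protein astrin, at -1.19 ± 0.34. Replication genes had a median of -0.91, with 11 of 24 lower at that p and 0 higher; without wild-type array 3 the median was -0.48 and 3 were lower at that p. Mcm6, a subunit of the replicative helicase, was at -2.01 ± 0.42 (-1.22 within slide 1), the clamp loader gene Rfc4 at -2.0 ± 0.51 (-1.0) and Rrm2, of ribonucleotide reductase, at -2.01 ± 0.52 (-1.14). Only 13.0% of replication promoter windows held the CHR core, while 69.6% held a CCAAT box. None of the genes in these or the following lists passed the adjusted threshold.

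Among 21 regulators of mitotic transcription, 3 were lower at an unadjusted p under 0.05, where 10.02% of all features were, with a median of -0.45. Without wild-type array 3 the count was 2, where 2.69% of all features were lower, and the median -0.18. The small counts in this and the next lists were not tested against those shares. Foxm1, the activator of late mitotic genes, was at -1.46 ± 0.37 (-0.94 within slide 1), Mybl2, B-Myb, at -0.89 ± 0.39, and Tfdp1, the dimer partner of E2F factors, at -0.93 ± 0.32. Nfya, an NF-Y subunit, was above background on 1 wild-type and 4 knockout arrays; it passed the filter through the knockout group, so its difference is not given. Subunits and regulators of the anaphase-promoting complex had 3 of 13 lower, and 0 without wild-type array 3 (median -0.58, but -0.098 within slide 1), namely Anapc1 at -0.99 ± 0.35 (-0.46 within slide 1), Cdc27 at -0.87 ± 0.34 and the inhibitor Fbxo5 at -0.94 ± 0.39 (-0.37). Cohesin and other condensin subunits had 2 of 9 lower, and 0 without wild-type array 3, with a median of -0.45 (-0.24 within slide 1). Ncapd3 of condensin II was at -1.48 ± 0.47 and the cohesin subunits Smc1a and Rad21 at -1.05 ± 0.37 and -0.72 ± 0.35, or -0.56, -0.57 and -0.17 within slide 1. Of 7 G1 and S cyclins and kinases tested, 3 were lower, and 2 without wild-type array 3: Cdc25a, Ccne2 and Ccne1 were at -1.40, -1.70 and -1.07, or -0.68, -1.85 and -0.28 within slide 1. The 5 tested CDK inhibitors went both ways. Cdkn1c, p57, abundant in the fetal adrenal, was at -1.40 ± 0.36, while Cdkn1a, p21, was at 1.91 ± 0.63 (1.23 within slide 1) and Cdkn2b, p15, at 2.08 ± 0.69; these last 2 were higher at an unadjusted p under 0.05, and neither was without wild-type array 3.

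Macrophage markers stood higher in the knockout beside the lower mitotic genes, while lists for other cells had few genes at an unadjusted p under 0.05. All 10 macrophage markers tested were higher in the knockout at an unadjusted p under 0.05, by a median of 3.04 (1.80 within slide 1, 4.22 within slide 2). Without wild-type array 3, 6 of them were higher at that p, as were 745 of all 21099 features. In the fit over all arrays 0 of these markers passed the adjusted threshold. The summed signal of the macrophage markers, relative to each array's 75th percentile, was 48.8 to 364 in the wild-type and 716 to 1638 in the knockout arrays, without overlap. The lowest knockout sum, on array 4, lacks Lyz2, which had only outlier spots there. On every array 9 or all 10 were above background, Lyz2 being counted as not above it on knockout array 4. Tyrobp, Csf1r and Fcer1g had the smallest p among them, at 4.54, 2.69 and 3.05, or 2.54, 1.75 and 1.85 within slide 1. Adrenocortical markers were fitted lower for 7 of 7 (Star, Hsd3b1 and Nr5a1 first, at -4.70, -2.32 and -0.84, the last -1.47 within slide 1), with a median of -1.08 (-1.60 within slide 1, -0.15 within slide 2) and summed signals of 67.2 to 843 in the wild-type against 67.4 to 213. These 7 include Star itself, the gene knocked out, and 56.9% of all features were fitted lower. Within slide 2, 4 of the 7 were lower, and Cyp21a1 was above background on 6 arrays. Chromaffin markers had a median of -0.91 (-0.88 within slide 1, -0.96 within slide 2) and summed signals of 98.3 to 1965 against 4.33 to 145. Pnmt, Chga and Chgb were at -5.54, -2.38 and -2.24, the last -1.12 within slide 1. Erythroid markers had a median of -0.34 that was 0.11 within slide 1 and -1.49 within slide 2 (Epor 1.87, Alas2 -1.04 but -0.68 within slide 1, Hbb-bh1 -1.74 but -0.84 within slide 1). Endothelial markers had one of 0.63, 0.15 within slide 1 and 1.03 within slide 2 (Esam 1.61, Tie1 0.85, Emcn 0.63, or 0.94, 0.092 and 0.36 within slide 1). Capsule and stromal markers had one of 1.15, 1.20 within slide 1 and 1.52 within slide 2 (Acta2 2.10, Lum 1.88, Col3a1 1.36). The summed signals of these 3 lists overlapped between genotypes. At an unadjusted p under 0.05, 2 of 7 adrenocortical markers, Star among them, and 1 of 7 chromaffin markers were lower. Of 9 erythroid markers 1 was lower and 1 higher, of 7 endothelial markers 0 were either, and of 7 capsule and stromal markers 1 was higher. Of all features, 10.02% were lower and 8.37% higher. The part of these cells in the lower mitotic levels was not tested.

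**Figure D5:**
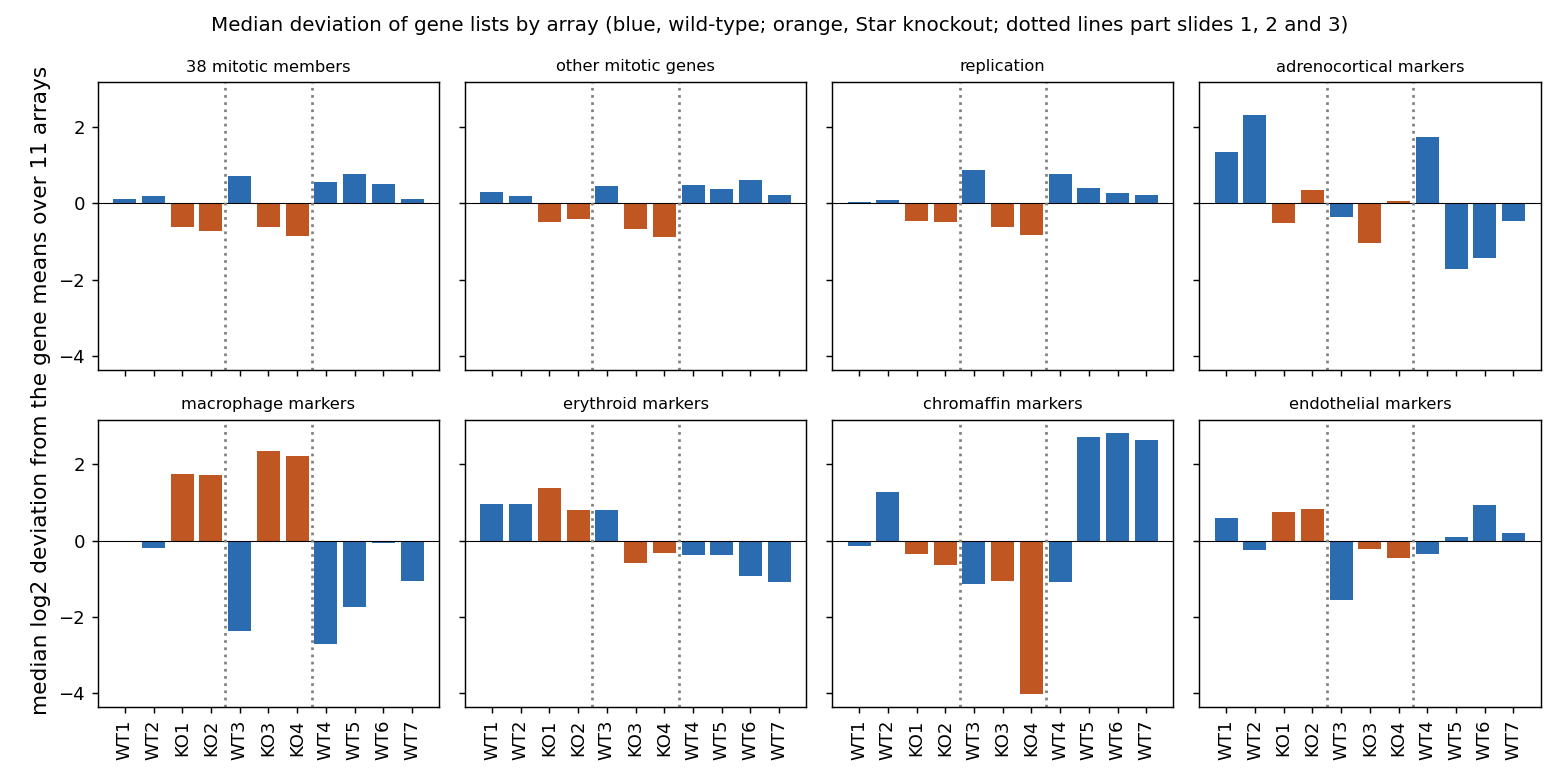
Median log2 deviation of each gene list from its genes' means over the 11 arrays (y axis, same range in all panels), per array, in slide order; blue bars are wild-type and orange bars knockout. The mitotic members are above 0 on all 7 wild-type arrays and below 0 on all 4 knockout arrays, macrophage markers are above 0 on the knockout arrays alone, and adrenocortical and chromaffin markers vary widely between wild-type arrays.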

How the data were processed

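RNA of eGFP-positive adrenal cells from 11 mice was measured on single-colour arrays, 1 mouse per array; genotype, sex and replicate are those of the labels, and the files identify the slide. The deposited scanner files hold spot intensity from Agilent Feature Extraction with background already subtracted, per the file headers, which name version 10.1.1.1 for slides 1 and 2 and 10.5.1.1 for slide 3; the submitters' processing notes name 10.5.1.1. A deposited table of log2 values from the authors equalled the scaling used here after centring each probe on its median (tolerance 0.01) for 99.78% to 99.83% of probes, with column medians of -0.166 to 0.901, and served as an alternative.

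Of 45018 spots per array, 43379 were not controls, 77 to 164 were dropped as outliers and 0 were saturated. The spots of each of 41174 probes were averaged as log2 signal and the array's 75th percentile was subtracted. A RefSeq table of GRCm38.p6 named 24375 probes through accessions. Between 19065 and 26407 probes were above background per array; precision is limited by there being 11 arrays.

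limma 3.58.1 (R 4.3.3) fitted genotype and slide over all 11 arrays (7 residual degrees of freedom), two-sided, with Benjamini-Hochberg adjustment. Values of every array are given for the 3 members of each class with the smallest p, its highest probe and members of opposite sign, and differences for the other members and for the 3 genes of smallest p in each other list; Nfya and Ddx3y were named after their values were seen. Members and lists were chosen with earlier results of these data known. The fit was tested on simulated data. Of 30 alternatives, 28 were planned; 2, with only slides 1 and 2 and with arrays centred on their medians, were chosen after seeing the data. Normexp used an offset of 50. Random blocks used statmod 1.5.0, tables the package data.table (version 1.17.8), pandas 2.3.3 and numpy 2.4.6, figures matplotlib 3.10.9 in Python 3.11.15.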

Additional observations from a re-analysis of the deposited data

Results flagged for a closer look

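A single array stood far from the others of its group for 4 of 70 groups examined (35 members in each genotype), where chance marks about 1 in 20 groups. All 4 were wild-type, and 3 concerned array 3. For Cdk1, array 3 was lowest at -3.38, with the next array at -0.53. For Kif4 it was lowest at -0.49, with the next at 0.44, and for Top2a it was highest at 0.023, with the next at -2.06. For Mad2l1, array 7 was lowest at -2.36, with the next at -0.81.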

How the results depend on the processing

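Of 30 alternatives, each kept the members' median below 0, from -1.21 (slide 2 alone) to -0.73 (slide 1 alone, and without wild-type array 3). The count at an unadjusted p under 0.05 moved from 17 by over 1.5 times in 2 of them: 10 with sex as a further term, and 6 without wild-type array 3, so that leaving out 1 array gave 6 to 21. With sex as a further term, the share of all features at that p was not counted. Numbers of features and of members past the adjusted threshold, 175 and 1 in the fit reported, moved more, and the cause was not tested. They were 604 and 6 with no slide term, 474 and 2 with a random slide block, 27 and 0 with sex, 78 and 0 with sex and wild-type array 4 left out, 628 and 2 with normexp background, 404 and 2 with probes above background on all 11 arrays, 1925 and 9 with array weights (0.17 to 4.68), and 535 and 0 over slides 1 and 2 only. Slide 1 alone and slide 2 alone gave 0 of both, with 16 and 17 members lower at an unadjusted p. Leaving out 1 array gave 10 to 561 features and 0 to 1 members. Members past the threshold were also 0 with no filter on dim probes, the mean of all probes, the authors' series table and median centring. As a replicate block, the shared replicate numbers gave 186 features, 0 members and a median of -1.0; the numbers were not established as pairs, since same-numbered arrays correlated at 0.183, 0.217, -0.006 and 0.185.

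Signs turned for 8 members under at least 1 alternative; for Cdk1, Kif11 and Ncaph the probe was not above background on wild-type array 3. Cdk1 was -0.35 with no slide term, -0.84 in slide 1 alone and without wild-type array 3, -0.30 with the replicate block, -0.20 with normexp, -0.0050 as the mean of probes, -0.62 with array weights, and -0.84 to 0.92 when 1 array was left out. Kif11 was -0.068 with no slide term, -0.045 with the random block, -0.23 in slide 1 alone and without wild-type array 3, -0.068 with sex, -0.093 with sex and array 4 left out, -0.12 with the replicate block, -0.28 with normexp, -0.063 as the mean of probes, -0.0016 in the authors' table, -0.0029 with outlier spots kept, -0.19 with array weights and -0.23 to 0.090 when 1 array was left out. Ncaph was -0.61 in slide 1 alone and without wild-type array 3, -0.028 and -0.14 with sex, -0.41 with normexp, -0.35 with array weights and up to 0.74 when 1 array was left out. Ndc80 was 0.51 with no slide term and 0.10 with the random block, and Smc2 was 0.0014 with no slide term. In slide 2 alone Nek2 was 0.73, Bub1b 0.058 and Kif4 0.019. Signal over background limits Cdc25c, Ndc80, Ttk and Anln.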
